A study of Saccharomyces cerevisiae with 50 samples.

Results

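The histone gene promoters of Saccharomyces cerevisiae were examined for called ChIP-Seq peaks of 6 transcription factors, each carrying a myc tag. The members are the promoters of 10 genes, HTA1, HTB1, HTA2, HTB2, HHT1, HHF1, HHT2, HHF2, HHO1 and HTZ1, chosen by name from the 6430 genes whose promoters were scored. A promoter was taken as the 600 bp upstream of the start of the gene in the R64 annotation, and a peak was counted there if it overlapped by at least 1 bp. The 8 core histone genes lie in divergent pairs, each pair reading outward from one intergenic region. The 10 promoters therefore fall in 6 regions, 4 shared by a pair and 1 each for HHO1 and HTZ1, and both counts are given.

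Histones are the proteins around which DNA is wound in the nucleosome. In yeast, HTA1 and HTA2 encode histone H2A, HTB1 and HTB2 encode H2B, HHT1 and HHT2 encode H3, and HHF1 and HHF2 encode H4. HHO1 encodes the linker histone H1, and HTZ1 encodes H2A.Z, a variant of H2A placed in nucleosomes next to promoters. The core histone genes are transcribed in bursts around the start of S phase, when DNA is copied. Spt10 and Spt21 activate them, and the HIR complex represses all of the core pairs except HTA2-HTB2 outside that window. Swi4p and Swi6p form SBF, which switches on genes at the transition from G1 to S phase, and Swi6p also joins Mbp1 in MBF. Gcn4p activates amino acid biosynthesis genes, Rtg3p acts in the retrograde response to mitochondrial dysfunction, Nrg1p represses glucose-repressed genes, and Sut1p is a zinc cluster protein linked to sterol uptake.

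Each factor was immunoprecipitated through a C-terminal myc epitope from a W303 strain lacking its co-factor and from the strain that keeps the co-factor, called wild type (WT). The deletion strains were rtg3Δ for Gcn4p, gcn4Δ for Rtg3p, sut1Δ for Nrg1p, nrg1Δ for Sut1p, swi6Δ for Swi4p and swi4Δ for Swi6p, the co-factor gene being replaced by a kanamycin marker. The GCN4 and RTG3 strains of both genotypes were grown in rich medium (YPD) and treated with 100 nM rapamycin, an inhibitor of TOR kinase, for 20 minutes. The NRG1, SUT1 and SWI4 strains were grown in YPD to mid-log phase without the drug, and the growth text does not name the SWI6 strains. The cultures were not synchronised in the cell cycle. Swi4p has 1 IP per strain in the labels, Swi6p 2 and each of the other factors 3, which makes 30 beside 20 INPUT samples that enter only through the peak calls. The wild-type IPs of a factor came from 1 culture split before ChIP while deletion strains were grown separately, so the spread between wild-type IPs is technical and p-values measure only the spread between these IPs. For each strain of Nrg1p, Sut1p, Swi4p and Swi6p the labels give 1 INPUT, so the IPs of such a strain would share that control and their calls would not be independent. Strain and culture cannot be told apart, no untagged strain is among the samples, and a peak list cannot show that the co-factor gene was absent.

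The number of peaks per IP ranged between 3 and 1065 and came to 8486. Each has a MACS score, which grows with the significance of the enrichment and starts at 50. Depth is unknown because the lists give no read numbers, and a region without a called peak may still have been occupied below the threshold of the caller. Some lists stand apart. The list of Sut1p WT replicate 3 shared at most 4.62% of covered bases (bases in both lists over bases in either) with the other Sut1p WT lists, which shared 42.4% with each other, and it was closest to Sut1p nrg1Δ replicate 3 at 27%. Nrg1p WT replicate 3 shared at most 9.71% with its own replicates, and the 3 Rtg3p gcn4Δ lists shared 5.37% to 9.15% with each other. The lists of Swi6p in swi4Δ hold 3 and 8 peaks and share no base with each other, against 228 and 204 peaks in WT. The main results that rest on these lists are given with and without them.

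The histone regions had a called peak in 26 of the 180 combinations of region and IP. Counted by promoter, 41 of 300 combinations (13.7%) had a peak, against 5.62% over all promoters. In deletion IPs the share was 16.7% of histone promoters against 5.77% of all, and in WT IPs 10.7% against 5.47%. Each of the 6 regions had a peak in at least 2 IPs, and 13 of the 30 IPs had a peak at 1 or more regions. Neither count has a share over all promoters beside it, and neither is read as a property of the histone regions. The peaks were not spread evenly. Of the 26, 15 were in IPs from deletion strains, 11 of these in the 3 Sut1p nrg1Δ IPs, and 11 were in WT IPs. Not one of the Gcn4p rtg3Δ, Rtg3p gcn4Δ, Nrg1p sut1Δ, Swi4p WT or Swi6p swi4Δ IPs had a peak at any histone region. Over all promoters, a peak in at least 1 such IP was seen at 15.4% for Gcn4p in rtg3Δ, 4.51% for Rtg3p in gcn4Δ, 1.37% for Nrg1p in sut1Δ, 2.26% for Swi4p in WT and 0.342% for Swi6p in swi4Δ. These shares are low, and 0 of 10 is not read as a property of the histone promoters. The peaks were 964 to 4010 bp wide with a median of 2026 bp, against a median of 1164 bp over all lists. Their scores were 52.5 to 585 with a median of 210, against a median of 143 and a highest score of 3227 over all lists. Wide peaks meet a fixed window more often, and the highest-scoring peak per region was taken. Median widths also differed between groups of lists, from 978 bp for Rtg3p in gcn4Δ to 2128 bp for Swi4p in swi6Δ. The width and score medians are therefore not read as a property of the histone peaks. Of the 26 peaks, 25 also covered part of a histone coding sequence, so most calls span the promoter and at least one of the genes it serves.

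**Figure D1:**
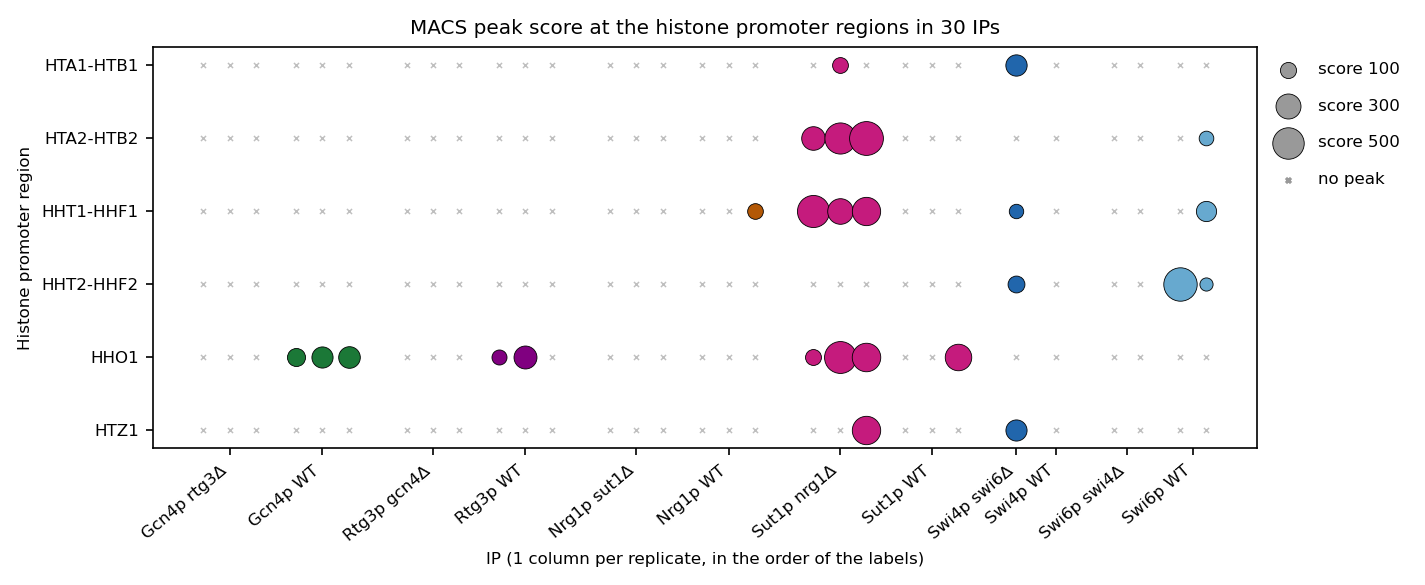
MACS score of the highest-scoring peak at each of the 6 histone promoter regions (rows) in each of the 30 IPs (columns, 1 per replicate, with the deletion strain left of WT for each factor). The area of a circle grows with the score and a cross marks an IP without a peak. The 3 Sut1p nrg1Δ IPs hold 11 of the 26 peaks, and HHO1 is the row with the most peaks, 9.

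The linker histone promoter was the one most often under a peak. HHO1 (YPL127C, chromosome XVI, 308828 to 309604, complement strand) had a peak in its promoter, 309605 to 310204, in 9 of 30 IPs. The promoter is shared with NAN1, which encodes a factor of ribosomal RNA processing and starts at 310210 in the other direction, and all 9 peaks also covered the promoter of NAN1. The 9 peaks have 309312 to 310245 in common, a stretch of 934 bp that holds the whole intergenic region and the 5′ end of HHO1. In 7 of them the lower boundary lay between 309011 and 309312 and the upper one between 310263 and 310463. The peaks of Gcn4p, Rtg3p and Sut1p thus lay over the same bases, and a call at this site cannot be given to HHO1 rather than to NAN1.

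Gcn4p had no peak at HHO1 in the 3 rtg3Δ IPs, against scores of 136, 203 and 214 in the 3 WT IPs. The strains did not overlap. The mean score was 0 in rtg3Δ, taking a missing peak as 0, and 184 ± 42.1 in WT (SD, n = 3 each), and the two-sided exact permutation test gave p = 0.1, the smallest value that 3 against 3 IPs allow. HHO1 was the only histone promoter under a Gcn4p peak, 1 of 10 in every WT IP. All WT IPs shared a peak at 4.12% of all promoters, and each had one at 9.78% to 10.5%. A peak in every Gcn4p WT IP and in no rtg3Δ IP was seen at 0.389% of all promoters, and a score in every WT IP above every rtg3Δ IP at 0.855%. The lists held 416 to 551 peaks in rtg3Δ, against 502 to 626 in WT. With equal numbers of peaks (416 per list) all 3 WT IPs kept their peak at HHO1. The difference, rtg3Δ minus WT, was then -184, as with all peaks, and the exact permutation test gave p = 0.1. No cause of the difference was tested. No rtg3Δ list had a peak within 2000 bp of the HHO1 promoter.

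Rtg3p, whose strains received the same rapamycin treatment, had no peak at HHO1 in the 3 gcn4Δ IPs. In WT it scored 81.1 in replicate 1 and 246 in replicate 2 and had no peak in replicate 3. The strains overlapped at 0, the means were 0 in gcn4Δ and 109 ± 126 in WT (SD, n = 3 each), and the exact permutation test gave p = 0.4. Leaving out WT replicate 2 brought the difference to -40.6, against -109 with all IPs, and leaving out any 1 gcn4Δ IP left it at -109. The peak of WT replicate 2 ran 1985 bp from the promoter of TBF1, a telomeric repeat-binding factor, across HHO1 to NAN1. Its midpoint lay 652 bp from the centre of the HHO1 promoter. A peak in at least 2 Rtg3p WT IPs was seen at 2.32% of all promoters. At HHO1 only 1 WT IP kept a peak under each of 3 alternatives. These were a score of at least 100, equal numbers of peaks (46 per list) and a midpoint inside the region. The difference was then -82.1, -82.1 and -27. The gcn4Δ lists held 46 to 216 peaks, against 117 to 297 in WT, and the nearest gcn4Δ peak, in replicate 3, began 381 bp from the HHO1 promoter inside NAN1 with a score of 75.5.

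Sut1p had a peak at HHO1 in all 3 nrg1Δ IPs, with scores of 96.2, 516 and 403. In WT the first 2 IPs had none and replicate 3 scored 342.5. The strains overlapped, with means of 338 ± 217 in nrg1Δ and 114 ± 198 in WT (SD, n = 3 each), and the exact permutation test gave p = 0.2. Without WT replicate 3, whose list stands apart from its replicates, the difference was 338, against 224 with it. It was 135 without nrg1Δ replicate 2 and 57.8 with equal numbers of peaks, where 1 nrg1Δ IP and 1 WT IP kept a peak. That WT peak was 2221 bp wide and reached the promoter of TBF1. In nrg1Δ the same stretch was called as a pair of peaks in each IP, the second lying over the 3′ part of HHO1 and the promoter of TBF1 with scores of 323, 259.9 and 227.

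HTZ1 (YOL012C, chromosome XV, 303579 to 303983, complement strand) had peaks in its promoter, 303984 to 304583, in only 2 IPs, and both were centred elsewhere. The Sut1p nrg1Δ replicate 3 peak (score 399) covered the HTZ1 gene and the promoter of HRD1, which encodes a ubiquitin ligase of the endoplasmic reticulum, and overlapped the HTZ1 promoter by 93 bp. In nrg1Δ replicate 2 a peak with a score of 149.7 ended 73 bp short of the promoter. The other peak was that of Swi4p in swi6Δ (score 203), which overlapped by 252 bp from the side of PLB3, a phospholipase B gene. These 2 peaks share no base. The variant histone promoter therefore had no peak whose midpoint lay inside it.

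**Figure D2:**
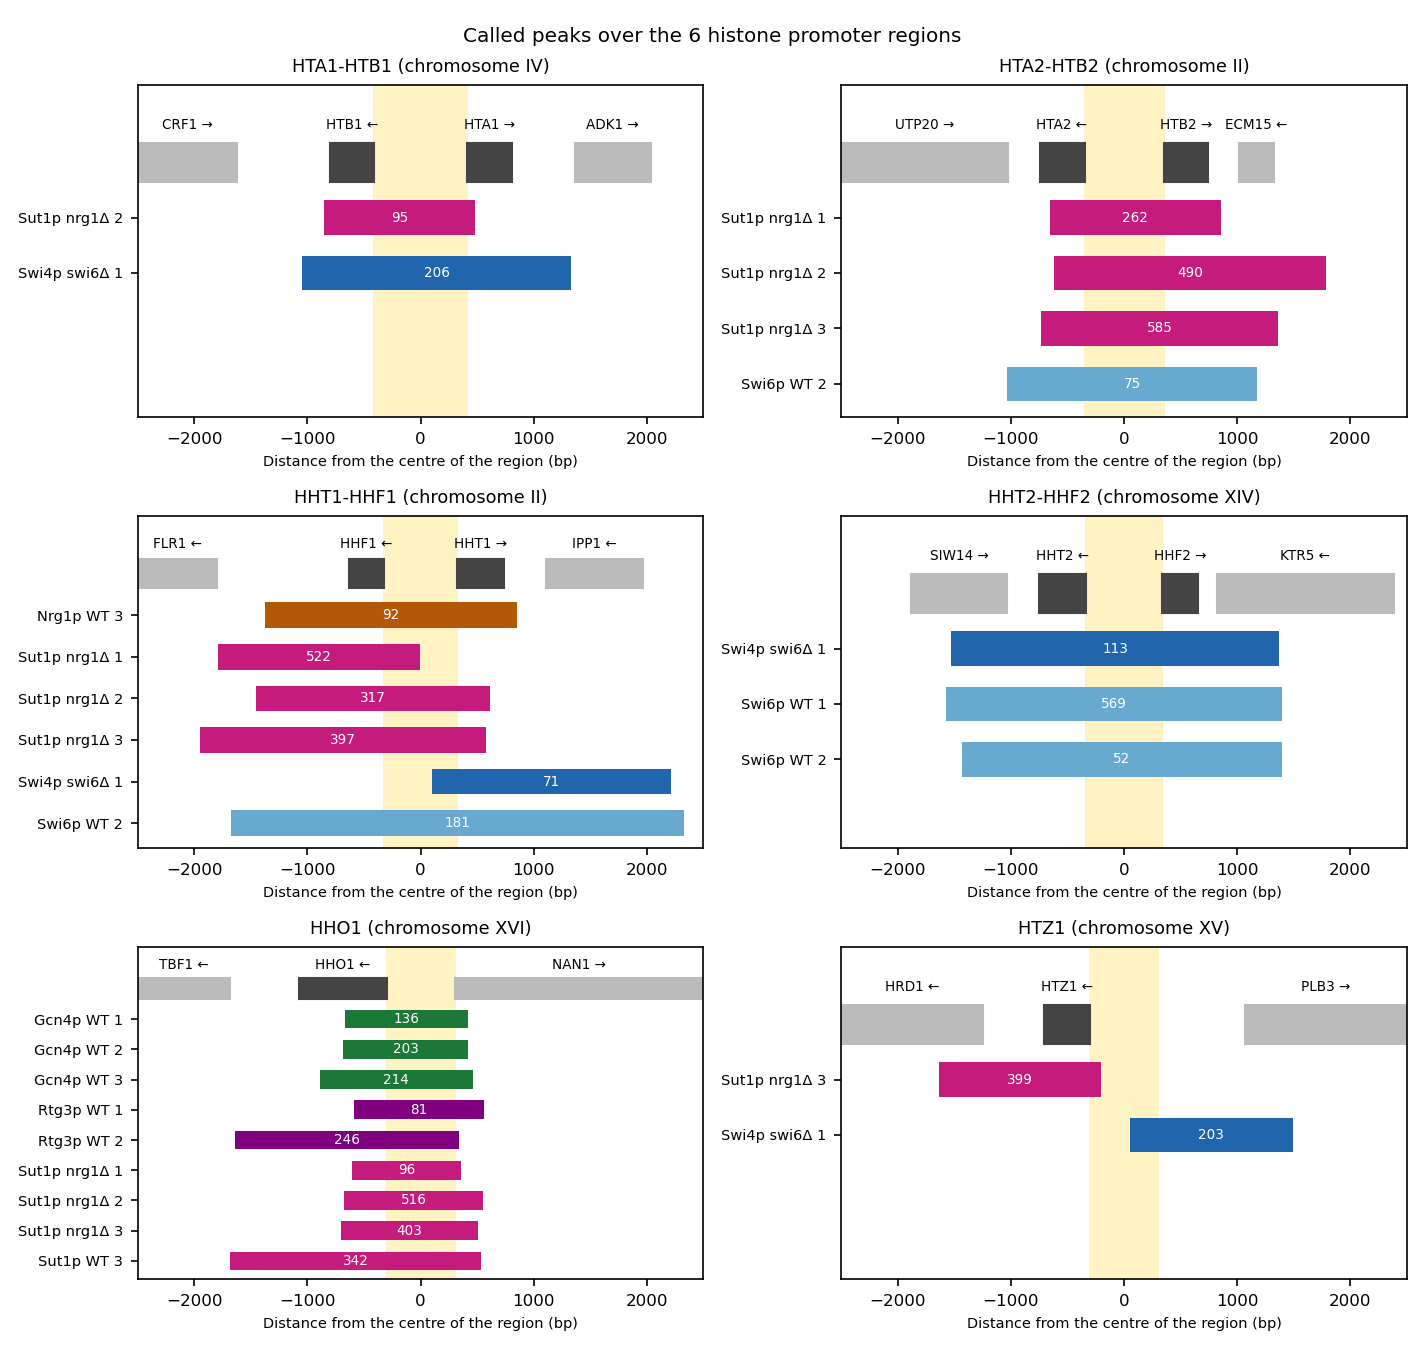
Extent of every called peak over the 6 histone promoter regions, as bars against the distance from the centre of the region in bp, with the MACS score in the bar and the factor, strain and replicate at the left. Yellow marks the promoter region, dark boxes are histone genes and grey boxes their neighbours, with arrows for the direction of transcription. The 9 peaks at HHO1 lie over 1 common stretch, whereas those at HHT1-HHF1 and HTZ1 have no base common to all.

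Sut1p in the nrg1Δ strain had peaks at 8 of the 10 histone promoters in at least 1 of 3 IPs, where 25.7% of all promoters did. The 3 nrg1Δ IPs had peaks at 5, 7 and 6 of the 10 promoters, or 3, 4 and 4 of the 6 regions, against 0, 0 and 1 promoters in WT, where 17% of all promoters had a peak in at least 1 IP. The mean number of regions was 3.67 ± 0.58 in nrg1Δ and 0.33 ± 0.58 in WT (SD, n = 3 each). Over all promoters the nrg1Δ IPs had a peak at 12.2%, 16.3% and 18.2%, against 2.89%, 6.83% and 11.4% in WT, so the lists were also longer as a whole. They held 696, 808 and 1065 peaks in nrg1Δ, against 117, 267 and 579 in WT. When every Sut1p list was limited to its 117 highest-scoring peaks, the difference in regions fell to 1. The promoters of 5 histone genes (HTA2, HTB2, HHT1, HHF1 and HHO1) had a peak in every nrg1Δ IP, where 7.23% of all promoters did. For 4 of them no WT IP had one, a pattern seen at 2.97% of all promoters. Counted once per region, 3 of 6 regions had a peak in every nrg1Δ IP. Among these were 2 of the 4 core pairs, where 7.47% of 1527 divergent gene pairs did. The same 2 pairs had no peak in WT, a pattern seen at 2.88% of divergent pairs.

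HTA2-HTB2 (chromosome II, 235793 to 236491) had the highest mean Sut1p score of the core pairs, ahead of HHT1-HHF1 by less than the spread between IPs. Its scores were 262.5, 489.6 and 585 in the nrg1Δ IPs, and no WT IP had a peak. The strains did not overlap, the nrg1Δ mean was 446 ± 166 (SD, n = 3 each), and the exact permutation test gave p = 0.1, the smallest possible. Without WT replicate 3 the difference stayed at 446, and the exact permutation test gave p = 0.2. The difference was 358 with equal numbers of peaks and 282 with the midpoint required inside the region, and the exact permutation test gave p = 0.4 for each. In their lists these peaks ranked 125 of 696, 62 of 808 and 58 of 1065. All 3 covered the whole intergenic region and the whole HTB2 coding sequence, with 66.9% to 96.5% of HTA2. Their midpoints lay 98, 584 and 311 bp from the centre, on the HTB2 side, and in replicates 2 and 3 they reached the promoter of ECM15 beyond HTB2. The one other peak here was that of Swi6p in WT replicate 2, with a score of 74.6.

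HHT1-HHF1 (chromosome II, 255685 to 256330) had Sut1p scores of 522, 317 and 397 in the nrg1Δ IPs and no peak in the WT IPs. The strains did not overlap, the nrg1Δ mean was 412 ± 104 (SD, n = 3 each), and the exact permutation test gave p = 0.1. Without WT replicate 3 the difference stayed at 412, and the exact permutation test gave p = 0.1. With equal numbers of peaks per list the difference was 174 and the exact permutation test gave p = 1, and with the midpoint required inside the region it was 0. These peaks were not centred on the histone promoter. Their midpoints lay 900, 418 and 684 bp from its centre toward FLR1, a gene for a multidrug transporter of the plasma membrane, and all 3 covered part of the FLR1 promoter (254210 to 254809). In replicate 1 the peak covered 48.5% of the region and stopped short of the HHT1 gene. The neighbour had peaks of its own. Gcn4p peaks at the FLR1 promoter scored 598, 312 and 962 in rtg3Δ and 617, 419.9 and 263 in WT. They ended 847, 183 and 762 bp from the histone region in rtg3Δ, and 165, 316 and 744 bp from it in WT. Rtg3p WT replicates 1 and 3 also had peaks there, 136 and 171 bp short of the region, with scores of 139 and 56.1. Of these Gcn4p and Rtg3p peaks, 4 lay over the HHF1 coding sequence without reaching its promoter. FLR1 and the other neighbours were named after their values were seen, and whether the Sut1p signal belongs to FLR1 or to the histone pair was not tested.

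Nrg1p had no peak in the sut1Δ IPs and 1 in WT, in replicate 3, with a score of 92.3, ranked 24 of 47. It covered both histone genes and their shared promoter, and the FLR1 promoter as well. This was the only Nrg1p peak at a histone promoter, its list is among those that stand apart, and without it the difference between strains was 0. The exact permutation test gave p = 1. At least 1 Nrg1p WT IP had a peak at 1.56% of all promoters.

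HTA1-HTB1 (chromosome IV, 914713 to 915529) and HHT2-HHF2 (chromosome XIV, 576051 to 576726) differed from the other core pairs in their Sut1p calls. HTA1-HTB1 had a peak in 1 nrg1Δ IP, replicate 2, with a score of 94.7 that ranked 528 of 808, and the exact permutation test gave p = 1. HHT2-HHF2 had no Sut1p peak in either strain, and no Sut1p peak within 2000 bp. The copies of each core histone gene thus had different calls: the H3 and H4 genes HHT1 and HHF1 were under Sut1p peaks in 3 of 3 nrg1Δ IPs and their counterparts HHT2 and HHF2 in 0 of 3, and the H2A and H2B genes HTA2 and HTB2 in 3 of 3 against 1 of 3 for HTA1 and HTB1. These differences between copies were not tested, and at HHT1-HHF1 the count was 1 of 3 with equal numbers of peaks and 0 of 3 where the midpoint had to lie in the region. The copies encode the same or nearly the same protein, and only uniquely aligned reads were kept. Whether this lowered coverage within the genes was not tested. For Sut1p the exact permutation p of 0.1, the smallest from 3 against 3 IPs, was reached at 338 of 6430 promoters. After adjustment over all of them the smallest p was 1. Scores in every nrg1Δ IP lay above every WT IP at 5.18% of promoters, among them the same 4 of 10 histone promoters.

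**Figure D3:**
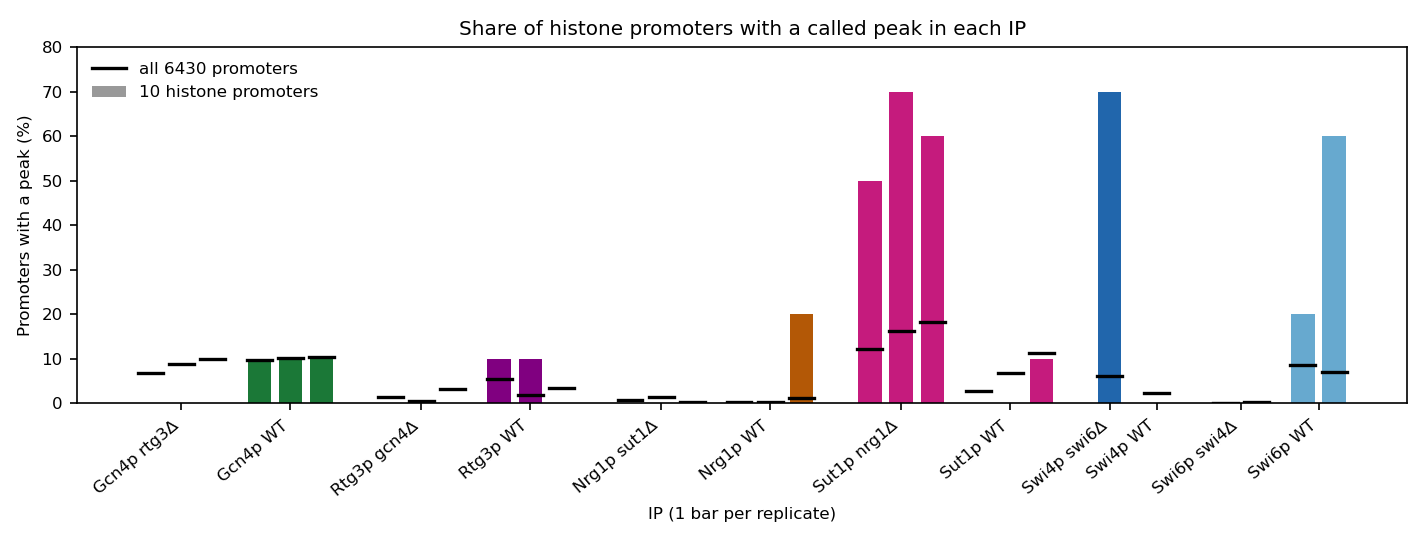
Percentage of the 10 histone promoters with a called peak in each IP (bars, 1 per replicate, with the deletion strain left of WT) and the percentage of all 6430 promoters in the same IP (black lines). The bars of Sut1p nrg1Δ reach 50% to 70% and that of Swi4p swi6Δ 70%, while the Gcn4p WT bars are level with the lines at 10%.

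The SBF subunits gave the second group of peaks. Swi4p had peaks at 7 of 10 histone promoters and 4 of 6 regions in the swi6Δ IP, against 0 in the WT IP. Over all promoters 6.1% had a Swi4p peak in swi6Δ and 2.26% in WT, and 4.14% had one in swi6Δ and not in WT. The scores in swi6Δ were 206 at HTA1-HTB1, 71.5 at HHT1-HHF1, 113 at HHT2-HHF2 and 203 at HTZ1. There was 1 IP per strain, so the difference has no replicate check and no test. The peaks ranked 97, 161, 129 and 98 of 182, below the middle of their list, and none was left when both lists were limited to 73 peaks, the number in WT. At HTA1-HTB1 and HHT2-HHF2 the peak covered both genes completely. At HHT1-HHF1 it covered 33.9% of the region, with its midpoint 1158 bp away toward IPP1, the gene for inorganic pyrophosphatase, whose promoter it also covered.

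Swi6p had its histone peaks in WT and none in the deletion strain. The swi4Δ IPs had peaks at 0 and 0 histone promoters, against 2 and 6 of 10 in WT, or 0 and 0 of 6 regions against 1 and 3. Over all promoters 0.0778% and 0.264% had a peak in swi4Δ, against 8.55% and 7% in WT. The swi4Δ lists with 3 and 8 peaks leave little room for a call anywhere. With lists of 3 peaks each in both strains the difference in regions was 0. HHT2-HHF2 was the only histone region with a peak in both WT IPs, a rule met by 5.66% of all promoters. Its scores were 569 in replicate 1, ranked 40 of 228, and 52.5 in replicate 2, ranked 195 of 204 and just above the lowest score in the lists. The mean was 0 in swi4Δ and 311 ± 366 in WT (SD, n = 2 each), and the exact permutation test gave p = 0.33, the smallest value for 2 against 2. Leaving out either swi4Δ IP left the difference, swi4Δ minus WT, at -311. HTA2-HTB2 and HHT1-HHF1 had a peak in WT replicate 2 only, with scores of 74.6 and 181, and the exact permutation test gave p = 1 for each. The HHT1-HHF1 peak was 4010 bp wide and ran over the promoters of FLR1 and IPP1 as well.

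The peaks at HHT2-HHF2 were alike in shape. Those of Swi4p in swi6Δ and of Swi6p in both WT IPs had 2803 bp in common, 574953 to 577755, and were 2832 to 2971 bp wide. They covered both coding sequences and the promoter and extended past both genes, with midpoints 20 to 92 bp from the centre of the promoter.

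The gene lists show where else these SBF peaks fell. All 5 SBF targets listed (the G1 cyclin genes CLN1 and CLN2, the cyclin genes PCL1 and PCL2, and the endonuclease gene HO) had a peak in Swi4p WT and in both Swi6p WT IPs. In swi6Δ 4 of 5 had a Swi4p peak, and in swi4Δ none had a Swi6p peak. Of 11 highly transcribed genes, mostly for glycolytic enzymes and translation factors and none of them on the list of SBF targets, 10 had a Swi4p peak in swi6Δ and 1 in WT. Only GPM1 of the 11 had none in swi6Δ, and CCW12, a cell wall protein gene, was the one with a peak in WT. CCW12 scored 3100 for Swi4p in both strains and for Swi6p in both WT IPs, above every histone region, and TEF2, a translation elongation factor gene, scored 524 and 700.4 in the Swi6p WT IPs. Swi6p had peaks at 0 and 0 of these 11 in swi4Δ, against 6 and 3 in WT. The swi4Δ lists of 3 and 8 peaks had no call in any gene list examined, so the Swi6p change was not particular to these 11 genes. Whether the histone calls of Swi4p and Swi6p are related to calls at highly transcribed genes was not tested. Within Swi6p WT, replicate 1 had peaks at 6 of the 11 and at 2 histone promoters, and replicate 2 at 3 of the 11 and at 6 histone promoters. In the Sut1p nrg1Δ IPs, where 5 to 7 histone promoters had peaks, 1 of the 11 had one in each IP, against 0, 1 and 0 in WT. Over all promoters the shares were 12.2%, 16.3% and 18.2% in these nrg1Δ IPs, against 2.89%, 6.83% and 11.4% in WT. Such small counts are not read as a property of the 11 genes.

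**Figure D4:**
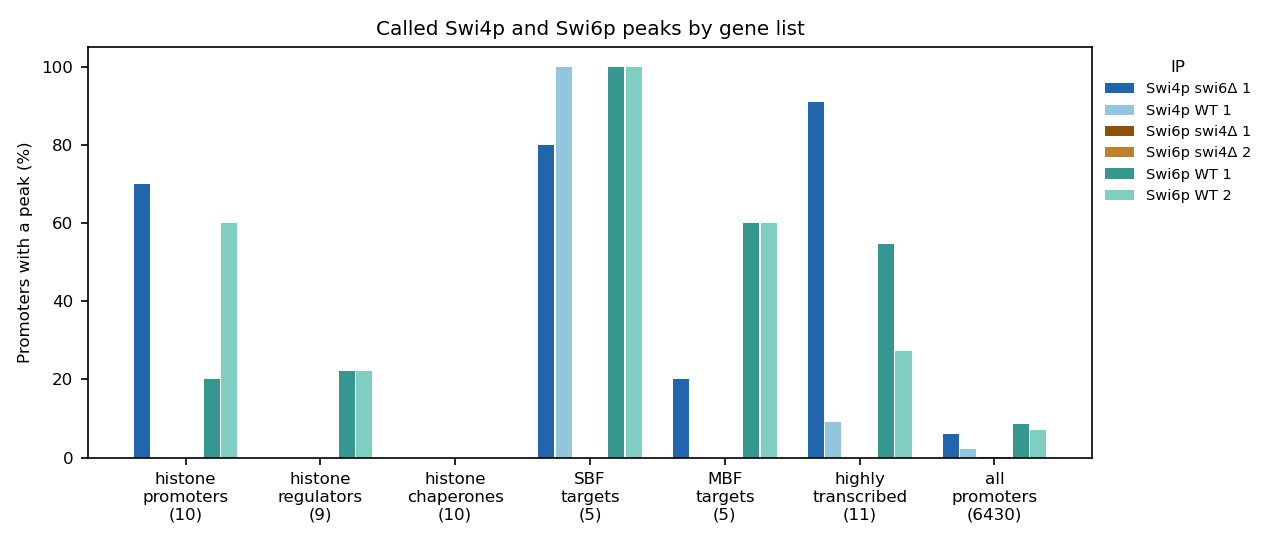
Percentage of promoters with a called Swi4p or Swi6p peak in each gene list, 1 bar per IP with the deletion strain left of WT, and the number of genes in parentheses. Swi4p in swi6Δ had peaks at 70% of histone promoters and 90.9% of highly transcribed genes, and both Swi6p WT IPs had peaks at all SBF targets. The Swi6p swi4Δ bars are at 0 in the listed genes.

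Genes that act on histones or at the same cell cycle stage were examined as lists. Of 9 regulators, HPC2, which encodes a subunit of the HIR complex, had a Gcn4p peak in 2 of 3 rtg3Δ IPs, with scores of 209.8 and 275, and in all WT IPs, with scores of 235, 690.0 and 488. Over all promoters, 4.12% had a peak in every Gcn4p WT IP. Swi6p had peaks in both WT IPs, and none in swi4Δ, at ASF1 (136 and 96.0), a histone H3-H4 chaperone gene, and at SPT21 (218 and 159.7). Both Swi6p WT IPs had a peak at 5.66% of all promoters, and at least 1 swi4Δ IP at 0.342%. Swi4p had no peak at any of the 9 in either strain. Of 10 histone chaperone genes, CHZ1, whose product binds H2A.Z and H2B and which was singled out after its values were seen, had a Sut1p peak in all nrg1Δ IPs (108, 53.5 and 128) and in WT replicate 3 only (149). A peak in every Sut1p nrg1Δ IP was seen at 7.23% of all promoters. No histone chaperone gene had a peak in every WT IP of a factor, and neither did any of the 7 genes for histone variants and H2A.Z deposition, where the share over all promoters was 0.0778% to 5.66% depending on the factor. Of 5 MBF targets, RNR1, CLB5 and CLB6, which act in DNA synthesis and S phase entry, had Swi6p peaks in both WT IPs and none in swi4Δ. CLB5 also had Gcn4p peaks in 2 of 3 rtg3Δ IPs (113 and 225) and in all WT IPs (124, 72.8 and 380.4). The shares of all promoters given above for Swi6p and Gcn4p apply here as well. Rtg3p had a CLB5 peak in all 3 gcn4Δ IPs (167, 259.8 and 150.5) and in no WT IP, a pattern seen at 2 of 6430 promoters, or 0.0311%, and pointed out after its values were seen.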

How the data were processed

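The authors' MACS peak lists for 30 IPs were used, 1 per IP without pooling. The deposited value of each peak is its MACS score, and reads of 42 bases that aligned uniquely had been compared with INPUT. The submitters' processing notes name CASAVA 1.8, Novoalign 2.07.0, MACS 1.4.0rc2 and build R64. Depth per sample is unknown, so no interval or floor based on depth is given. Promoters came from the R64 annotation of RefSeq (6430 genes with a strand in the systematic name, 1 left out). The highest score of the peaks over a promoter was taken, 0 where there was none. Strains were compared per region by two-sided exact permutation over IPs, with Benjamini-Hochberg adjustment over all promoters, and functions were tested on simulated data. For 21 peaks with a start before the chromosome, the first base was used. Alternatives were a minimum score of 100, a minimum overlap of 100 bp, shorter promoters (300 bp), bases up to the next gene, equal numbers of peaks, ranks of scores, leaving out each IP and a replicate block. Named are all members, list genes under a peak in all WT IPs of a factor, and the 3 promoters nearest in pattern to each region with a peak in at least 3 IPs; other genes are marked where named. Members and lists were chosen with earlier results of these data known. The enrichment ratios over INPUT were not used here. Python 3.11.15, NumPy 2.4.6, SciPy 1.17.1 and Matplotlib 3.10.9 were used.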

Additional observations from a re-analysis of the deposited data

How the results depend on the processing

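The difference in the number of histone regions with a peak, deletion minus WT, kept its direction wherever it was not 0. For Sut1p it was 3.33 with all peaks, 2.67 with a score of at least 100, 1 with equal numbers of peaks (117 per list), and 2 where the midpoint of the peak had to lie in the region, an alternative chosen after seeing the data. For Swi4p it was 4 with all peaks, 0 with equal numbers (73) and 2 with the midpoint rule. For Swi6p it was -2 with all peaks and 0 with equal numbers (3). Leaving out 1 IP at a time gave 3.17 to 3.67 for Sut1p, -1 throughout for Gcn4p, -1 to -0.5 for Rtg3p, -0.5 to 0 for Nrg1p and -3 to -1 for Swi6p. Counting only the bases up to the next gene changed nothing, because the 4 shared regions and the HHO1 and HTZ1 windows hold no other gene. With a replicate block, a sign-flip permutation gave p of 0.25 to 1 for the 11 region comparisons, against a lowest exact p of 0.1 without it. Same-numbered IPs did not deviate together for all pairs of any factor (correlations from -0.48 to 0.43). With 2 or 3 IPs per strain this cannot settle whether the numbers pair. The sign-flip p cannot fall below 0.25 with 3 pairs or 0.5 with 2, so the block could not change a call. Unknown depth and 1 to 3 IPs per strain limit every comparison.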

Other observations

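Promoters elsewhere in the genome were ranked by how far their IPs with a peak matched those of a histone region (IPs in both over IPs in either, of 30), as a description of lists that share their libraries. For HTA2-HTB2 the nearest were PTI1, which encodes a factor of mRNA 3′ end formation, at 1.00, in the same 4 IPs, then the small nucleolar RNA gene SNR13 and TRS31, which encodes a subunit of the TRAPP trafficking complex, at 0.80 each. For HHT1-HHF1 they were PTI1 at 0.67, and YGK1 and GCN4 at 0.62 each, GCN4 being the gene of the tagged activator. For HHT2-HHF2, with 3 IPs, YMR141C and the ribosomal protein genes RPL13B and RPS16A reached 1.00, and these are neighbours on 1 chromosome. For HHO1 they were DET1 at 0.82, with 9 of its 11 IPs shared, and YNL115C and RPC19, a gene for a subunit common to RNA polymerases I and III, at 0.80 each.

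Sut1p WT replicate 3, the list that stands apart, had peaks at 4 of 9 histone regulators and 2 of 10 chaperone genes, against 11.4% of all promoters. Gcn4p WT replicate 3 had peaks at 2 of 9 and 4 of 10, against 10.5%, so such calls were not particular to the Sut1p list. The Sut1p list held peaks at YTA7 (568), ASF1 (195), SPT21 (142) and RTT106 (70.4), of which ASF1 also had a Sut1p peak in WT replicate 2 (123). These genes had no Sut1p peak in nrg1Δ. HIR3, a subunit gene of the HIR complex, had weak Sut1p peaks in nrg1Δ replicates 2 and 3 (51.1 and 61.9) and a stronger Rtg3p peak in gcn4Δ replicate 3 (422). CSE4, the gene of the centromeric H3 variant, had Sut1p peaks in nrg1Δ replicates 2 and 3 (153 and 212) and none in WT. These genes were named after their values were seen.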
